A study of Homo sapiens with 12 samples.

Results

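The 3 genes described here are CD46, CD55 and CD59, which code for membrane-bound complement regulators of human cells. They were taken by name, with every entry the splicing table holds for them, 143 of 721551, and with their entries among the 62710 genes of the count table. Of the 143 splicing entries, 64 belonged to CD46, 49 to CD55 and 30 to CD59. Enough reads for a test were found for 21 of them (14 of CD46, 5 of CD55 and 2 of CD59), among 100381 tested entries of all genes.

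The measurements are poly(A) RNA-seq of HEK293T, an established line of transformed human embryonic kidney cells, transfected for 48 hours with a vector for an effector and a vector for a guide RNA. The effectors were dCasRx-RBM25, a catalytically dead RNA-targeting CasRx joined to the splicing factor RBM25; RBFOX1N-dCasRx-C, which carries parts of the splicing factor RBFOX1; and dCasRx alone. The 6 groups of 2 libraries were RBM25_CD46 (guide against CD46 exon 13, for repression), RBM25_MAPT (guide against MAPT exon 10, for activation), RBM25_NT (nontargeting guide), RBFOX1N_MAPT, RBFOX1N_NT and dCasRx_NT. All groups carried a dCasRx effector, with no untransfected cells and no dCasRx alone with the CD46 guide, so what RBM25 adds to the CD46 guide cannot be told apart from dCasRx itself.

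Complement is a cascade of plasma proteases that deposits C3b and C4b on surfaces and ends in a lytic pore. CD46 helps factor I cut C3b and C4b, CD55 speeds the decay of the convertases that make C3b, and CD59 blocks the last step, the insertion of the pore. CD46 spans the membrane, whereas CD55 and CD59 hang from glycosylphosphatidylinositol (GPI) lipid anchors. CD46 occurs in isoforms: the STP exons A, B and C code for pieces of a stalk rich in serine, threonine and proline, and use or skipping of exon 13 gives the alternative cytoplasmic tails CYT-1 and CYT-2.

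The sequences at the centre of the results were read from the GENCODE release 29 transcripts (GRCh38, plus strand of chromosome 1), 5′ to 3′. The 3 STP exons are shown because they are alternative parts of one stalk. They are exon A (chr1:207767607-207767651), exon B (chr1:207767779-207767823) and exon C (chr1:207770321-207770362), and each has a length that keeps the reading frame.
STP exon A: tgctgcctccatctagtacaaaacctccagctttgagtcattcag
STP exon B: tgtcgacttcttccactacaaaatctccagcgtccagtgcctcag
STP exon C: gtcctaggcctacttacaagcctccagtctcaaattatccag
The coding parts of exon 13 (chr1:207790253-207790304) and of the last exon (chr1:207793519-207793591) are shown because their choice sets the tail, with the stop codon in capitals.
CD46 exon 13, coding part: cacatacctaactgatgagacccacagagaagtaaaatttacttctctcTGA
CD46 last exon, coding part: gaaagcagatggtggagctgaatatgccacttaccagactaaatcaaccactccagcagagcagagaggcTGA
Exon 13 ends the protein after 52 nt, so the last exon is read only where exon 13 is skipped, and then for 73 nt. Exon 6 of CD55 (chr1:207331108-207331296), of 189 nt, is shown because its use differed between effectors, and the capitals mark the pentamer GCATG, the core of the element that RBFOX proteins bind.
CD55 exon 6: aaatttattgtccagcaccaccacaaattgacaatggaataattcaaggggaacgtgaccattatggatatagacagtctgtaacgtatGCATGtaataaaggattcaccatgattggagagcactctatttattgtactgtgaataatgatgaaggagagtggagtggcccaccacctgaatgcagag
Neither GCATG nor CGGGCA, a hexamer reported as bound by RBM25, occurred in the 3 STP exons or in the whole of CD46 exon 13. In CD55 exon 6, CGGGCA did not occur and GCATG occurred once on the transcript strand. Among 571 annotated internal exons of the same length, 18.0% held GCATG on the transcript strand. The other strand of these exons held neither motif, and the flanking introns were not searched.

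Exon 13 of CD46 is a 93 nt exon at chr1:207790253-207790345 that 3 of 11 annotated coding transcripts carry and 8 skip. Its percent spliced in (PSI) was lowest under its own guide. PSI is the percent of the deposited corrected reads that include the exon, which differs from the share of raw junction reads. In RBM25_CD46 replicate 1, 30 raw reads led into exon 13, 45 led out of it and 194 skipped it, at a PSI of 15.5%. PSI was 15.5% and 17.4% in the RBM25_CD46 libraries, against 37.6% and 32.1% in the RBM25_NT libraries. It was 33.9% and 28.0% in RBM25_MAPT, 25.2% and 23.4% in RBFOX1N_MAPT, 29.4% and 30.1% in RBFOX1N_NT, and 35.9% and 34.7% in dCasRx_NT. Both libraries with the CD46 guide thus lay below all 10 others, whose lowest value was 23.4%. The 95% Wilson intervals of the RBM25_CD46 libraries ran from 11.6% to 20.3% and from 13.6% to 22.0%, on 269 and 317 reads. These totals sum the reads into, out of and skipping the exon. Such intervals cover counting error only, and approximately, because PSI does not weigh these reads equally.

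In group means the order was dCasRx_NT at 35.3% ± 0.869, RBM25_NT at 34.9% ± 3.92, RBM25_MAPT at 30.9% ± 4.19, RBFOX1N_NT at 29.8% ± 0.495, RBFOX1N_MAPT at 24.3% ± 1.24 and RBM25_CD46 at 16.4% ± 1.37 (SD, n = 2 each). The ranges of dCasRx_NT, RBM25_NT and RBM25_MAPT overlapped from one to the next, and so did those of RBM25_MAPT and RBFOX1N_NT, whereas RBFOX1N_MAPT and RBM25_CD46 stood clear of their neighbours.

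The difference between RBM25_CD46 and RBM25_NT was -18.4 points (SE 2.94, from the spread between replicates). In the quasi-binomial model of all groups it had an unadjusted p of 4.73e-06, the 6th lowest of 100381 entries, and an adjusted p of 0.0714. It was therefore not called at the limits used throughout, a PSI difference of 10 points or more together with an adjusted p below 0.05. No entry of any gene was called in that comparison (0%; 5930 entries had an unadjusted p under 0.05, and limma on logit PSI called 1). The entry that limma called was not the targeted exon, for which limma gave an unadjusted p of 0.00228 and an adjusted p of 0.817. Against the mean of RBM25_NT and RBM25_MAPT, the difference was -16.5 points (SE 2.25; adjusted p 0.0996 in the quasi-binomial model and 0.823 in limma). Leaving out single libraries gave -21.2 to -15.7 points for the first comparison, with adjusted p from 0.0579 to 0.375.

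Among the other comparisons, exon 13 differed by -5.54 points between RBFOX1N_NT and dCasRx_NT (SE 0.707; adjusted p 0.490) and by -0.43 points between RBM25_NT and dCasRx_NT (SE 2.84; adjusted p 0.945). With the MAPT guide, it differed from the nontargeting guide by -3.92 points with dCasRx-RBM25 (SE 4.06) and by -5.48 points with RBFOX1N-dCasRx-C (SE 0.947), with adjusted p of 0.951 and 0.917. Between the effectors, with NT and MAPT guides averaged, the dCasRx-RBM25 libraries were 5.88 points above the RBFOX1N-dCasRx-C libraries (SE 2.08; adjusted p 0.116). None of these was called in the quasi-binomial model. Leaving out single libraries moved the difference between RBM25_MAPT and RBM25_NT over -6.88 to -0.96 points, and that between RBM25_NT and dCasRx_NT over -3.21 to 2.34 points, so the sign of the last turned.

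The splice junctions on either side of exon 13 were also read one at a time. Reads into the exon gave 15.7% ± 3.19 in RBM25_CD46 and 28.8% ± 1.83 in RBM25_NT, and reads out of it gave 18.5% ± 0.433 in RBM25_CD46 and 42.2% ± 5.43 in RBM25_NT (SD, n = 2 each). Both junctions were lower with the CD46 guide. In each of the 6 groups the mean from reads out of the exon was above that from reads into it.

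**Figure D1:**
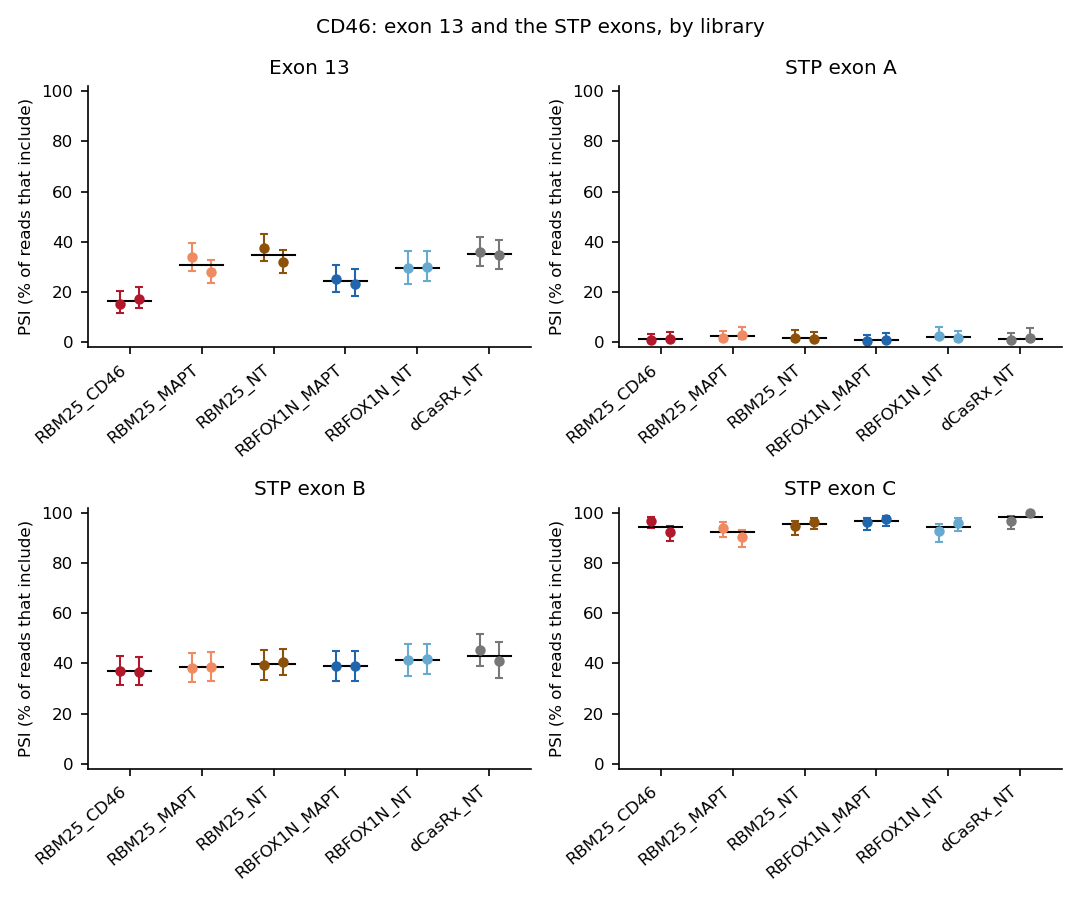
PSI (percent of corrected reads that include the exon, vertical axes) of CD46 exon 13 and of the STP exons A, B and C in the 12 libraries, by group. Points are libraries with 95% Wilson intervals and black lines are group means; the 2 RBM25_CD46 libraries sit at 15.5% and 17.4% for exon 13, below the 10 others, while STP exon C lies at 90.2% to 100% and STP exon A at 0.739% to 2.88%.

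The STP exons were used at 3 different levels, and the same order held in every library. STP exon C was nearly always kept, STP exon B was kept in a minority of transcripts, and STP exon A was nearly always skipped. STP exon C had PSI from 90.2% to 100%. STP exon A had PSI from 0.739% to 2.88%, on 135 to 239 reads per library.

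STP exon B had PSI of 36.9% and 36.7% in RBM25_CD46, 38.2% and 38.7% in RBM25_MAPT, 39.2% and 40.4% in RBM25_NT, 38.8% and 38.8% in RBFOX1N_MAPT, 41.4% and 41.6% in RBFOX1N_NT, and 45.1% and 41.0% in dCasRx_NT. The RBM25_CD46 libraries were the lowest, and the whole range spanned under 9 points. Its difference between RBM25_CD46 and RBM25_NT was -3.01 points (SE 0.631; adjusted p 0.979, quasi-binomial model). Between RBM25_NT and dCasRx_NT it was -3.28 points (SE 2.14; adjusted p 0.677), and between RBFOX1N_NT and dCasRx_NT -1.63 points (SE 2.05; adjusted p 0.856). None of the 3 STP exons was called in any of the 7 comparisons, nor under any alternative setting.

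The lowest unadjusted p of STP exon C was for RBFOX1N_NT against dCasRx_NT, with means of 94.3% ± 2.27 in RBFOX1N_NT and 98.4% ± 2.29 in dCasRx_NT (SD, n = 2 each; difference -4.11 points, adjusted p 0.303 in the quasi-binomial model). The differences of STP exon A were at most 1.30 points in size in any comparison.

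Of the remaining CD46 entries, 10 were tested and none was called in any of the 7 comparisons. Exons 5 and 6 code for SCR3 and SCR4, the short consensus repeats of CD46 that take part in binding C3b and C4b, and they are included in nearly all transcripts. Exon 5 (198 nt, chr1:207761249-207761446) had PSI of 91.2% and 94.0% in RBM25_CD46, 94.0% and 95.6% in RBM25_MAPT, 94.2% and 92.7% in RBM25_NT, 99.1% and 93.9% in RBFOX1N_MAPT, 99.1% and 98.1% in RBFOX1N_NT, and 97.1% and 99.3% in dCasRx_NT. The 6 libraries with dCasRx-RBM25 reached at most 95.6%, and 5 of the 6 others lay above that. The difference between RBM25_NT and dCasRx_NT was -4.72 points (SE 1.34; unadjusted p 0.00874, adjusted p 0.141, quasi-binomial model). Between the effectors it was -3.41 points (SE 1.46; adjusted p 0.0663), with RBFOX1N_MAPT replicate 2 inside the range of the dCasRx-RBM25 libraries. Exon 6 (183 nt) had PSI from 94.6% to 100%.

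Exon 12, next to the target, codes for part of the membrane-spanning segment and its inner edge, and can start at an inner 3′ splice site that removes its first 37 nt. That inner site took 15.9% and 10.9% of reads in RBM25_CD46, 9.03% and 4.96% in RBM25_MAPT, 7.42% and 6.25% in RBM25_NT, 4.10% and 6.21% in RBFOX1N_MAPT, 8.29% and 7.04% in RBFOX1N_NT, and 3.35% and 0% in dCasRx_NT, on 85 to 147 reads. The 2 libraries with the CD46 guide were the highest of the 12. The difference between RBM25_CD46 and RBM25_NT was 6.56 points (SE 2.57; unadjusted p 0.0470, adjusted p 0.842, quasi-binomial model), and the outer site of the same exon mirrored it.

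The intron before exon 13 was retained in 3.82% and 2.39% of corrected reads in RBM25_CD46, against 1.32% and 0.840% in RBM25_NT. The RBFOX1N_NT libraries had 2.56% and 2.59%, inside the range of RBM25_CD46, and the 8 remaining libraries, RBM25_NT among them, had 0.730% to 1.32%. The difference between RBM25_CD46 and RBM25_NT was 2.03 points (SE 0.755; adjusted p 0.796, quasi-binomial model). The intron after exon 13 stood at 0.878% to 4.06%, and the 4 other tested introns, next to exons 5 to 9, at 4.94% to 19.3%.

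An alternative 5′ splice site within exon 13, 21 nt before its end, had 12 reads in all 12 libraries together, against 930 for the usual site, and was too rare to test. The remaining untested CD46 entries likewise had too few reads of one form or too few reads in some library.

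**Figure D2:**
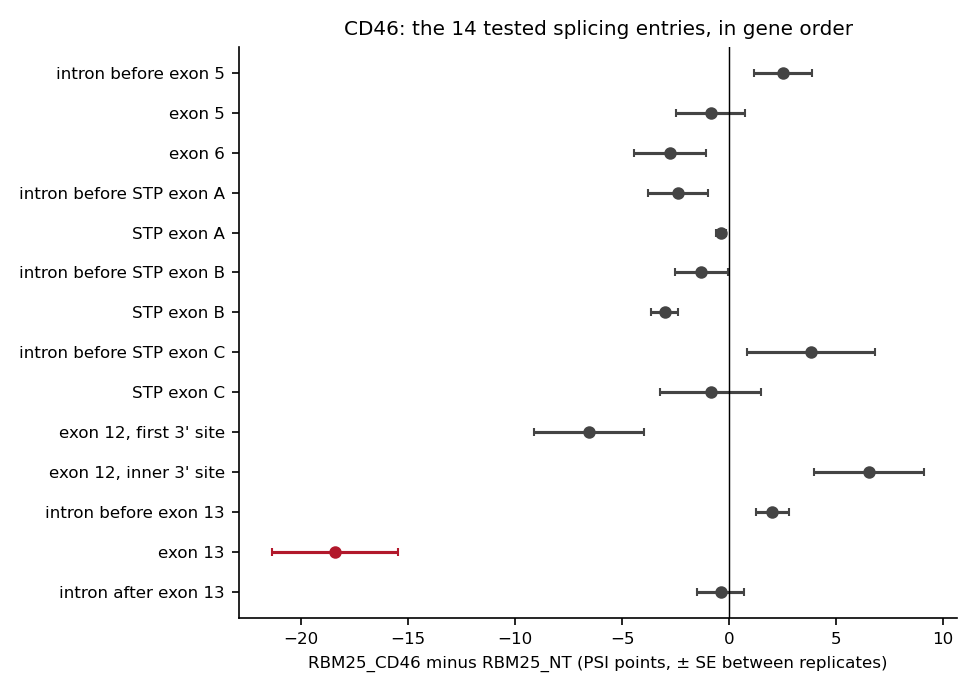
Difference between RBM25_CD46 and RBM25_NT (horizontal axis, PSI points; bars are ± 1 SE from the spread between replicates) for each of the 14 tested CD46 entries, in gene order from top to bottom. Exon 13, in red, lies at -18.4 points and the other 13 between -6.56 and 6.56 points.

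CD55 showed an exon difference by effector rather than by guide. Exon 6 of CD55, which codes for SCR4, the repeat nearest the stalk of the protein, had PSI of 87.5% and 90.0% in RBM25_CD46, 86.5% and 90.6% in RBM25_MAPT, and 88.9% and 86.4% in RBM25_NT. In the libraries without the RBM25 effector, PSI was 98.3% and 98.0% in RBFOX1N_MAPT, 98.3% and 98.2% in RBFOX1N_NT, and 97.3% and 98.0% in dCasRx_NT. The 6 libraries with dCasRx-RBM25 lay at 86.4% to 90.6% and the 6 without it at 97.3% to 98.3%, with no overlap, on 545 to 1077 reads per library. These totals sum the reads into, out of and skipping the exon. Reads that skipped it were few, at 41 and 72 in RBM25_NT and 11 and 5 in dCasRx_NT, so Wilson intervals on the totals can be too narrow. All 9 annotated coding transcripts of CD55 hold this exon, and skipping its 189 nt keeps the reading frame.

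Averaged over the NT and MAPT guides, inclusion of CD55 exon 6 was lower under dCasRx-RBM25 than under RBFOX1N-dCasRx-C (difference -10.09 points, SE 1.21; adjusted p 2.4e-07, quasi-binomial model). It was called there, as were 2.87% of all tested entries. Between RBM25_NT and dCasRx_NT the difference was -9.99996 points (SE 1.31) with an adjusted p of 0.000356, so it passed the p limit and fell just short of the 10-point limit; 0.732% of all entries were called in that comparison. With a limit of 5 points, it was called. Leaving out single libraries gave -11.3 to -8.74 points against dCasRx_NT and -11.1 to -9.05 points against RBFOX1N-dCasRx-C, so the 10-point limit was crossed in either direction while each adjusted p stayed at 0.00943 or below. Against RBFOX1N-dCasRx-C the call was lost on size without RBM25_MAPT replicate 1 (-9.05 points) or RBM25_NT replicate 2 (-9.46 points). Against dCasRx_NT a call was gained without RBM25_NT replicate 1 (-11.3 points) or dCasRx_NT replicate 1 (-10.4 points).

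RBFOX1N_NT and dCasRx_NT differed at CD55 exon 6 by 0.58 points (SE 0.368; adjusted p 0.713), in a comparison where 1.15% of all entries were called. The guides gave 1.11 points for RBM25_CD46 against RBM25_NT (SE 1.81), 0.94 points for RBM25_MAPT against RBM25_NT (SE 2.42) and -0.05 points for RBFOX1N_MAPT against RBFOX1N_NT (SE 0.171), none of them called. Both junctions showed the lower inclusion. Reads into the exon gave 89.4% ± 1.87 in RBM25_NT and 98.0% ± 0.449 in dCasRx_NT, and reads out of it gave 87.7% ± 1.39 in RBM25_NT and 97.6% ± 0.496 in dCasRx_NT (SD, n = 2 each).

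The other 4 tested CD55 entries were not called in any comparison. A 118 nt exon (chr1:207340391-207340508), known from cDNAs to shift the frame into a secreted form that lacks the GPI anchor signal, had PSI of 5.66% and 5.62% in RBM25_CD46, 7.15% and 4.50% in RBM25_MAPT, 5.77% and 3.36% in RBM25_NT, 9.61% and 8.02% in RBFOX1N_MAPT, 8.65% and 9.15% in RBFOX1N_NT, and 6.34% and 4.73% in dCasRx_NT. The 4 RBFOX1N libraries were the highest of the 12. Between the effectors its difference was -3.66 points (SE 0.987; unadjusted p 0.0274, adjusted p 0.133), and between RBFOX1N_NT and dCasRx_NT 3.37 points (SE 0.845; adjusted p 0.572), on 106 to 202 reads. Exon 3 of CD55 (192 nt), which codes for SCR2, had PSI from 96.4% to 99.3%. The 2 tested introns were retained in 0.189% to 4.98% of corrected reads.

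**Figure D3:**
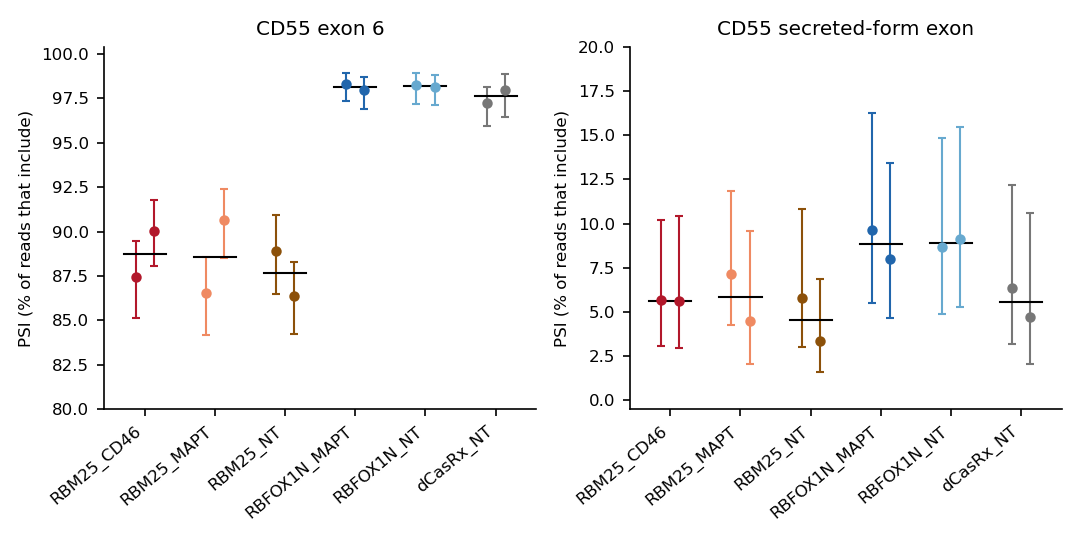
PSI (percent of corrected reads that include the exon) of CD55 exon 6, left, and of the 118 nt exon of the secreted form, right, in the 12 libraries by group. The left vertical axis starts at 80% and the right one runs to 20%. Points are libraries with 95% Wilson intervals and black lines are group means; the 6 libraries with dCasRx-RBM25 lie at 86.4% to 90.6% for exon 6 and the 6 others at 97.3% to 98.3%.

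The tested entries of CD59 were exons outside the coding sequence, on the minus strand of chromosome 11. The 45 nt exon (chr11:33731424-33731468) had PSI of 10.4% and 12.6% in RBM25_CD46, 8.82% and 11.0% in RBM25_MAPT, 7.26% and 8.87% in RBM25_NT, 10.7% and 11.1% in RBFOX1N_MAPT, 11.0% and 10.8% in RBFOX1N_NT, and 8.35% and 9.11% in dCasRx_NT. Some groups overlapped, but the RBM25_CD46 and RBFOX1N libraries all lay above those of RBM25_NT and dCasRx_NT. The differences of this exon were not called in any of the 7 comparisons. That between RBM25_CD46 and RBM25_NT was 3.40 points (SE 1.35, adjusted p 0.934, quasi-binomial model). The 116 nt exon (chr11:33733495-33733610) had PSI from 0.350% to 1.59%.

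The levels of CD46 and CD59, but not that of CD55, were called between the effectors, and none of the 3 was called under the CD46 guide. CD46 stood at 90.2 and 100.5 CPM (counts scaled to a common library size with edgeR's TMM factors) in RBM25_CD46, 84.0 and 109 CPM in RBM25_MAPT, 96.1 and 95.3 CPM in RBM25_NT, 79.1 and 79.2 CPM in RBFOX1N_MAPT, 80.7 and 86.6 CPM in RBFOX1N_NT, and 83.8 and 95.2 CPM in dCasRx_NT. The RBM25_CD46 libraries lay on either side of the RBM25_NT libraries. CD46 differed by -0.01 on the log2 scale between RBM25_CD46 and RBM25_NT (SE 0.11), CD55 by 0.03 (SE 0.09) and CD59 by -0.15 (SE 0.11), each with an edgeR adjusted p of 1. edgeR called 0 of 20593 genes in that comparison (0%; 487 had an unadjusted p under 0.05, and DESeq2 called 3).

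CD59 showed the clearest difference in level. It stood at 27.7 and 27.0 CPM in RBM25_CD46, 30.1 and 28.9 CPM in RBM25_MAPT, 32.6 and 28.2 CPM in RBM25_NT, 18.2 and 17.9 CPM in RBFOX1N_MAPT, 18.0 and 19.1 CPM in RBFOX1N_NT, and 21.6 and 27.5 CPM in dCasRx_NT. The RBFOX1N libraries were the lowest and did not overlap any other group; the dCasRx_NT replicates stood far apart from each other. In bulk RNA, fewer cells that express a gene and less of its RNA per cell cannot be told apart, and neither can the share of cells that took up the vectors.

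Averaged over the NT and MAPT guides, CD59 was higher under dCasRx-RBM25 than under RBFOX1N-dCasRx-C by 0.71 on the log2 scale (SE 0.08; edgeR adjusted p 2.98e-05), in a comparison where 36.7% of all genes were called. Against dCasRx_NT, CD59 was lower in RBFOX1N_NT (log2 difference -0.41, SE 0.12; edgeR adjusted p 0.0435; 10.8% of genes called), and in RBM25_NT it differed by 0.31 (log2, SE 0.11; edgeR adjusted p 0.119; 7.62% of genes called). These last comparisons share the dCasRx_NT libraries. The difference between RBM25_NT and dCasRx_NT was 0.16 without dCasRx_NT replicate 1 and 0.48 without replicate 2 (log2), and was not called without any single library. Without dCasRx_NT replicate 2, which stood apart from the other libraries in a principal component analysis, the log2 difference of CD59 between RBFOX1N_NT and dCasRx_NT was -0.23 (edgeR adjusted p 0.344). The call was also lost without RBFOX1N_NT replicate 1 (-0.36) or replicate 2 (-0.44), RBFOX1N_MAPT replicate 1 (-0.41) or replicate 2 (-0.40), and RBM25_CD46 replicate 1 (-0.40) or replicate 2 (-0.40).

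CD46 was higher under dCasRx-RBM25 than under RBFOX1N-dCasRx-C by 0.24 on the log2 scale (SE 0.08; edgeR adjusted p 0.0323). That call rested on most of the libraries: it was lost without RBM25_MAPT replicate 2 (0.14), RBM25_NT replicate 1 (0.24) or replicate 2 (0.25), RBFOX1N_MAPT replicate 1 (0.23) or replicate 2 (0.24), and RBFOX1N_NT replicate 1 (0.22) or replicate 2 (0.27), with edgeR adjusted p up to 0.113. CD55 stood at 54.0 to 65.9 CPM over the 12 libraries and differed by -0.11 between the effectors (log2, SE 0.06; edgeR adjusted p 0.171). Per kilobase of annotated exon, CD46 had 9.08 to 12.5 CPM, CD55 9.14 to 11.2 CPM and CD59 1.73 to 3.15 CPM, so CD46 and CD55 were at similar levels by that measure and CD59 lower.

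Of 10076 tested genes with a mean of at least 10 CPM, those whose log2 CPM ran most closely with CD46 over the 12 libraries were TMEM161B (Pearson r 0.984), SMAD5 (0.971) and MYSM1 (0.970). For CD59 they were RSBN1L (0.976), COG8 (0.975) and HOXA13 (0.974), and for CD55 they were DDX24 (0.931), MCM10 (0.928) and SUPT16H (0.920). The 12 points share group and library, so these are descriptions of likeness.

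Around these genes, 4 lists of 100 genes in all were followed: complement regulators, complement components and receptors, GPI anchor synthesis and remodelling, and partners and proteases of CD46. Of these 100 genes, 69 had enough counts for a test. None was called under the CD46 guide, and the median log2 difference of the 69 was -0.01, against -0.00 for all genes tested. The soluble regulators CFI, C4BPA and C4BPB were too low to test, and 16 of the 32 complement components and receptors were tested.

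Against dCasRx_NT, in RBM25_NT 2 list genes rose and 1 fell of the 69 tested, where 7.62% of all genes were called, with a median of -0.01 (log2), against 0.01 for all genes. MMP14, a membrane protease reported to shed CD46, averaged 6.13 ± 1.17 CPM in RBM25_NT and 3.16 ± 0.186 CPM in dCasRx_NT (SD, n = 2 each; log2 difference 0.95, edgeR adjusted p 0.0108). JAG1, a Notch ligand that binds CD46, rose by 0.43 (log2, edgeR adjusted p 0.0477). C5, the component that starts the lytic pathway, averaged 1.15 ± 0.237 CPM in RBM25_NT and 2.71 ± 0.334 CPM in dCasRx_NT (SD, n = 2 each; log2 difference -1.25, edgeR adjusted p 0.0067).

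In RBFOX1N_NT, 3 list genes rose and 6 fell of the 69 tested against dCasRx_NT, a share near the 10.8% called among all genes, with a median of -0.02 (log2), against -0.01 for all genes. Those that rose were CFP, which stabilises the alternative C3 convertase (1.45), PIGO, an enzyme of GPI anchor assembly (0.55), and NCSTN, a subunit of gamma-secretase (0.28). Those that fell besides CD59 were the proteases C1S (-0.68), C1R (-0.58) and MASP1 (-3.44), DPM3, a subunit of dolichol-phosphate mannose synthase (-0.67), and the kinase STK39 (-0.51). MASP1 was nearly absent, at 0.0499 ± 0.0292 CPM in RBFOX1N_NT and 0.591 ± 0.301 CPM in dCasRx_NT (SD, n = 2 each), so its fitted difference rests on a few counts.

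Between dCasRx-RBM25 and RBFOX1N-dCasRx-C, 17 list genes were called higher and 15 lower of the 69 tested, with a median of 0.02 (log2), against 0.01 for all genes. Of all 20593 genes, 36.7% were called there, 3697 higher and 3856 lower, and the counts of the single lists that follow stand against that share. Among complement regulators, 3 of 11 were called, all higher with dCasRx-RBM25: CD59, CD46 and C1QBP, which binds C1q (0.20). Among complement components and receptors, 2 of 16 were higher and 6 lower. MASP2, a protease of the lectin pathway, was higher by 0.76 and C1R by 0.37, while ITGAX (-2.44), C5 (-1.16), C2 (-0.64) and CFP (-0.61) were lower. ITGB2, the beta chain that ITGAX pairs with in complement receptors, was lower (-0.59), and so was ITGAM, another of its partners (-0.48); ITGAX itself was at most 0.4 CPM in any library.

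The GPI anchor genes, like all genes, were called in both directions, with 8 of 29 higher and 7 lower under dCasRx-RBM25 than under RBFOX1N-dCasRx-C, against 36.7% of all genes called. DPM3 averaged 15.9 ± 2.33 CPM in RBM25_MAPT and 14.7 ± 1.41 CPM in RBM25_NT, against 7.68 ± 0.170 CPM in RBFOX1N_MAPT and 8.81 ± 0.672 CPM in RBFOX1N_NT (SD, n = 2 each; log2 difference 0.90). Also higher were PIGM (0.53), a mannosyltransferase of the anchor, and PIGC (0.38), a subunit of the enzyme of its first step. MPPE1 (0.34), which acts in remodelling of the anchor, was higher too. PIGO averaged 36.2 ± 3.18 CPM in RBM25_MAPT and 36.4 ± 1.19 CPM in RBM25_NT, against 53.7 ± 2.94 CPM in RBFOX1N_MAPT and 55.7 ± 1.45 CPM in RBFOX1N_NT (SD, n = 2 each; log2 difference -0.59), and PGAP2, which remodels the lipid, was lower too (-0.40). Of the 13 partners and proteases of CD46, 4 were higher (MMP14 0.79, STK39 0.50, ITGB1 0.46 and JAG1 0.38, all log2) and 2 lower (NCSTN -0.46 and APH1A -0.21).

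**Figure D4:**
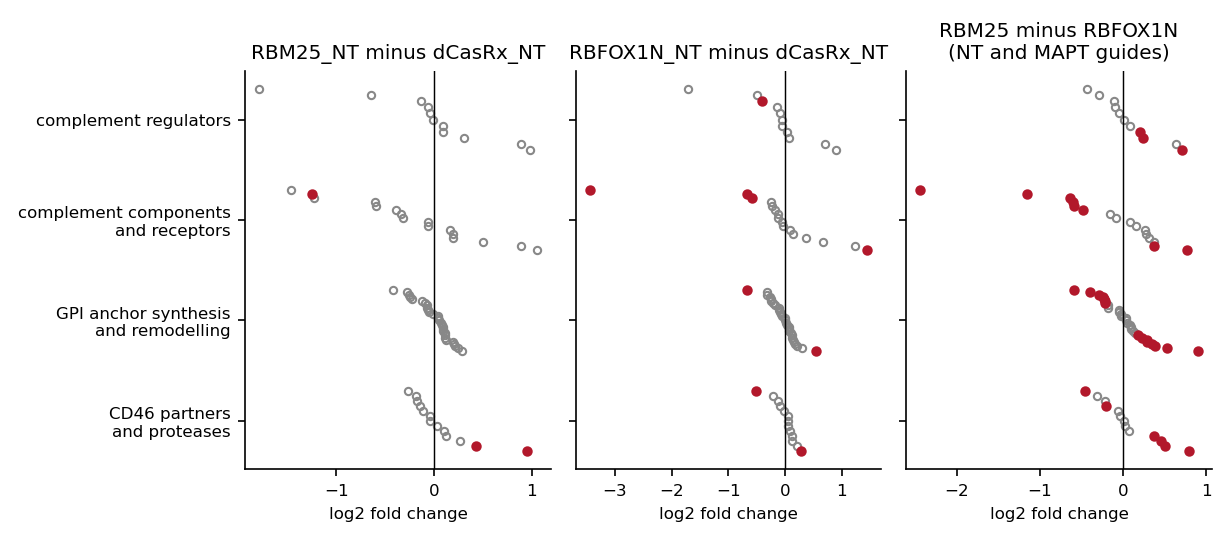
Log2 fold change (horizontal axes) of the tested genes of the 4 lists, spread vertically by rank within each list, for RBM25_NT minus dCasRx_NT, RBFOX1N_NT minus dCasRx_NT, and dCasRx-RBM25 minus RBFOX1N-dCasRx-C with the NT and MAPT guides averaged. Filled red points passed an edgeR adjusted p under 0.05 and open points did not; 3, 9 and 32 of the 69 genes are red, and in the rightmost panel 17 lie above 0 and 15 below.

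The splicing of the list genes other than CD46, CD55 and CD59 was read in the same fit. Under the CD46 guide 0 of their tested entries were called. Between RBM25_NT and dCasRx_NT, 3 of 210 entries of GPI anchor genes and 1 of 103 entries of CD46 partners were called, against 0.732% of all entries. Between RBFOX1N_NT and dCasRx_NT, 1 of 210 and 1 of 103 were called, against 1.15% of all entries. An 81 nt exon of PIGQ, which acts in the first step of anchor synthesis, was included at 83.0% in RBM25_NT and 64.3% in dCasRx_NT (difference 18.6 points, adjusted p 0.00107, quasi-binomial model), and at 84.5% in RBFOX1N_NT (20.2 points against the same dCasRx_NT libraries, adjusted p 0.000421). A 127 nt exon of ADAM10, a sheddase, was included at 82.5% in RBM25_NT and 94.2% in dCasRx_NT (-11.6 points, adjusted p 0.0435). Between dCasRx-RBM25 and RBFOX1N-dCasRx-C, 1 of 6 entries of complement components, 2 of 103 entries of CD46 partners and 9 of 210 entries of GPI anchor genes were called, against 2.87% of all entries. Of the 9, 2 were higher and 7 lower, among them 2 exons of PGAP1 and 3 of PGAP3, which act in remodelling of the anchor and were all less included with dCasRx-RBM25. These exons were named after their values were seen.

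The libraries held 32487927 to 53985468 counts each. RBM25, whose counts include those of the fused effector, made up 4.08% to 5.69% of each dCasRx-RBM25 library and 0.0200% to 0.0381% of each other library, which fits the labels. Markers found in HEK293T (VIM, NEFM, KRT18, KRT8, EYA4 and PAX2) stood at 5.29 to 862 CPM in every library. The blood markers PTPRC, CD3E and HBB reached at most 0.118 CPM, and ALB, PECAM1 and GFAP at most 1.02 CPM. The fibroblast marker COL1A1 was at 20.3 to 34.4 CPM; its part in any result was not tested. Replicates of a group differed by more than sampling noise (chi-square per gene from 6.07 to 32.7).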

How the data were processed

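The authors deposited whole-number read counts per Ensembl gene, not normalized, and a vast-tools style table with PSI in percent and, in a quality field beside each PSI, the corrected inclusion and exclusion reads, per the file headers and the cells' layout. The submitters' processing notes name STAR 2.7.10, edgeR and hg38 without their roles; the sources used here state neither the strand setting of the counting nor the vast-tools version, so overlapping or antisense genes are uncertain. PSI was recomputed from the reads of that field and lay within 0.05 points of the deposited percent in 99.2% of 6458113 values, and in 1568 of 1575 values of the 3 genes; the printed PSI are the recomputed ones.

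Per the labels' protocols, 200 ng each of effector and guide vector were transfected, and 500 ng of total RNA went into directional libraries read as 150 nt pairs. Libraries were grouped by title and columns matched by name, and no column of another sample was present. The design text calls the 2 replicates per group biological.

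Splicing was fitted by quasi-binomial logistic regression, with 1 mean for each of the 6 groups, over 100381 entries in 10694 genes with at least 20 reads in each library and 24 reads of the less used form. Its dispersion was moderated across entries (prior degrees of freedom 9.97, 6 residual) and floored at 1, and p-values from its two-sided F test were adjusted over all entries by the Benjamini-Hochberg method. The SE of a PSI difference comes from the spread between replicates. For a cassette exon, the reads fitted total those into, out of and skipping the exon, and were taken as independent. Expression was fitted with edgeR 4.0.16 in R 4.3.3 (TMM, filterByExpr, quasi-likelihood test) on 20593 genes, with Benjamini-Hochberg adjustment over all genes; its SE is from the fit. Both steps were also run on simulated data. For splicing, these held changes of a single size, above the 10-point limit, at entries of middling PSI. They therefore do not bear on CD55 exon 6, on STP exons A and C or on changes near that limit. With 2 libraries against 2, no exact permutation test can give a p below 0.333. Alternatives were other read minima, limma 3.58.1 on logit PSI, DESeq2 1.42.0, RLE scaling, no filter, fits of only the groups compared, the replicate number as a block, and leaving out each library. The deviations of replicate 1 from its group mean (log2 CPM) correlated by -0.0979 to 0.166 between groups. Among the dCasRx-RBM25 groups they correlated by 0.0996 to 0.166. The numbers were not taken as pairs.

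The 3 genes, the lists and the tests were chosen with earlier results of these data known. All entries of the 3 genes were taken; of each list, up to 6 called genes with the largest change per comparison were named, and for each of the 3 genes the 3 with the highest correlation. A symbol was found for 42303 of 62710 gene IDs. Exons were placed on GENCODE release 29. A marker gene and a list gene are not reported here.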

Additional observations from a re-analysis of the deposited data

Results flagged for a closer look

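With the MAPT guide, PSI of the outer STP exons of CD46 lay on opposite sides of the nontargeting guide for the 2 effectors, in each library of the groups compared. This pattern was looked for in all 21 tested entries and the 3 gene levels, and was found in these exons only. How often it would arise by chance was not tested. The reads behind it were few. Per library of these groups, each junction of STP exon A had 0 to 8 reads, and 2 to 10 reads skipped STP exon C. STP exon A averaged 2.37% in RBM25_MAPT and 1.58% in RBM25_NT (0.793 points higher), and 0.904% in RBFOX1N_MAPT and 2.20% in RBFOX1N_NT (-1.30 points). STP exon C averaged 92.1% in RBM25_MAPT and 95.3% in RBM25_NT (-3.18 points), and 96.7% in RBFOX1N_MAPT and 94.3% in RBFOX1N_NT (2.46 points higher). Neither difference between effectors was tested, and none of the single differences was called in the quasi-binomial model (adjusted p 0.933 to 0.987).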

How the results depend on the processing

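Over 25 results and 427 alternative values, 388 were counted as unchanged, and no called difference changed sign. A single difference was unchanged where it kept its side of the limits and, where called, its direction. A count of calls was unchanged where it stayed within a set ratio of the main count, so single calls could be lost or gained within it. With the replicate number as a block, exon 13 of CD46 against the mean of RBM25_NT and RBM25_MAPT was called (-16.5 points, adjusted p 0.0397) and against RBM25_NT was not (-18.4 points, adjusted p 0.0558). The numbers share no stated source, so no pairing was assumed, and the block changed no other call. With limma on logit PSI, exon 13 was called in neither comparison (adjusted p 0.823 against that mean and 0.817 against RBM25_NT). The limit of 5 points in place of 10 gave 2 calls in CD55 and CD59 in place of 1. In fits of only the groups compared, CD59 between RBFOX1N_NT and dCasRx_NT was -0.42 (log2, edgeR adjusted p 0.0870), with 4 in place of 8 list genes called there.

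Leaving out 1 library gave these ranges. CD55 exon 6 differed by -11.3 to -8.74 points between RBM25_NT and dCasRx_NT and by -11.1 to -9.05 points between dCasRx-RBM25 and RBFOX1N-dCasRx-C. Calls in CD55 and CD59 numbered 0 (without RBM25_MAPT replicate 1 or RBM25_NT replicate 2) to 2 (without RBM25_NT replicate 1 or dCasRx_NT replicate 1). Calls of the 3 genes' levels numbered 1 to 3 in all, with 1 without any single RBFOX1N library. CD59 differed by -0.56 to -0.23 between RBFOX1N_NT and dCasRx_NT, and CD46 by 0.14 to 0.33 between the effectors (log2, edgeR). List genes called, leaving out CD46, CD55 and CD59, numbered 1 to 6 between RBM25_NT and dCasRx_NT, against 3 with all libraries: 6 without either RBM25_MAPT library, 5 without dCasRx_NT replicate 1, and 1 without either RBM25_NT library or dCasRx_NT replicate 2. Between RBFOX1N_NT and dCasRx_NT they numbered 2 to 9, against 8: 3 without RBFOX1N_NT replicate 1, and 2 without RBFOX1N_NT replicate 2 or dCasRx_NT replicate 2. The causes of these shifts were not tested. Depth and the 2 libraries per group both limit precision, and how much each adds was not tested. Reads per library numbered 135 to 412 at exon 13 and the STP exons of CD46. They numbered 106 to 202 at the 118 nt exon of CD55 and 123 to 230 at the 45 nt exon of CD59.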
